A study of Mus musculus with 4 samples.

Results

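Immediate early response genes are the genes that cells switch on within minutes of a growth factor, serum or stress signal, without first making new protein. The account below covers 10 of them out of 22691 genes in the table, chosen by gene symbol: the AP-1 subunits Fos, Fosb, Jun and Junb, the zinc-finger factors Egr1, Egr2 and Egr3, the nuclear protein gene Ier2, the MAPK phosphatase gene Dusp1, and Atf3. All 10 were found, each in 1 row, and no other gene of the table overlapped any of them. RNA was sequenced in 4 libraries of fibroblasts grown from female mouse embryos at E13.5. The MD1 group had 2 libraries with the MD1 allele on both Smchd1 copies and the Xist deltaA mutation on one of the X chromosomes (Smchd1 MD1/MD1; Xist deltaA/+). The WT group had 2 libraries with intact Smchd1 and the same Xist mutation (Smchd1 +/+; Xist deltaA/+), so the controls carry Xist deltaA too. Mothers were C57BL6/J and fathers were F1 animals of JF1 and C57BL6/J. These genes are sensitive to serum, medium changes and handling before lysis; how long before lysis the medium was changed is not given in the sources used here.

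In resting cells most of these genes are quiet. Growth factors acting through RAS and the ERK kinases phosphorylate ternary complex factors such as ELK1, which sit with SRF (serum response factor) on CArG boxes, while kinases of the RSK and MSK families act on CREB at cyclic AMP response elements. The FOS and JUN proteins then pair into AP-1, which binds TGACTCA, and the phosphatase DUSP1 shuts the kinases down again. The RNAs are short-lived, so a steady culture shows only a low standing level of many of them, and fibroblasts returned to serum are the textbook setting for the pulse.

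The stretches of promoter before the start site are shown for 5 of the 7 genes with promoter windows, Fosb and Atf3 being left out. The 5 genes had lower, nearly level or higher values in MD1. The stretches shown hold some elements of the kinds through which such signals are known to act, and only the Egr2 stretch holds a CArG box. Whether these letters bear on the ratios was not tested. Fos and Dusp1 were lower in MD1 and Jun and Junb were nearly level. Egr2, which did not pass the FPKM filter given below, had a higher value. Sequences are from RefSeq (GRCm38.p6), 5′ to 3′ on the gene's strand, and end at the base before the start site or, for Dusp1, before the first base of an exon that GENCODE places further upstream. Capitals mark TGACG and TATAAA in Fos, TGACGTCA in Dusp1, TGACATCA in Jun, TGACG in Junb and a CArG box in Egr2. The Egr2 stretch holds TGACG too, on both strands, left in lower case.
Fos, chr12:85473740-85473889, plus strand: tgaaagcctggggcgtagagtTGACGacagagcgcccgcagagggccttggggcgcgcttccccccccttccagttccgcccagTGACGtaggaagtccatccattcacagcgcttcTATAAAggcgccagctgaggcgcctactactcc
Dusp1, chr17:26508520-26508622, minus strand: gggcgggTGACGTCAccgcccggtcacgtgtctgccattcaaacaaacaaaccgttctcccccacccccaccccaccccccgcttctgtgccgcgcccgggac
Jun, chr4:95052223-95052372, minus strand: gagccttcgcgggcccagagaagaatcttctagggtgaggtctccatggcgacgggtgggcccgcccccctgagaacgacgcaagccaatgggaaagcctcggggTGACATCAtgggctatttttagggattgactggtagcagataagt
Junb, chr8:84978749-84978898, minus strand: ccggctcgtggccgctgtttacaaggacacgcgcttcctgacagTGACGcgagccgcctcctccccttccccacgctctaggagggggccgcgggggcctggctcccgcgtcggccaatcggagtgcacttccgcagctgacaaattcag
Egr2, chr10:67537719-67537868, plus strand: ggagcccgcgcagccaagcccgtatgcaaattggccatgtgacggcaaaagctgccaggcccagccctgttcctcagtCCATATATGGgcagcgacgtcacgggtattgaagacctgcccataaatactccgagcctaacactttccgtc

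RefSeq promoter windows of 250 bases before and 50 after the start site were at hand for 7 of the 10 genes, in 11 windows, 5 of them for Egr2. None was at hand for Egr1, Egr3 or Ier2, so the promoters of these genes were not searched. Letters were searched on both strands. A CArG box, the SRF element, was in 4 of the Egr2 windows and in those of no other gene searched. Of these 4 windows 3 overlap and hold the same box, so there were 2 distinct boxes. Of all 32851 windows, 1.63% hold this pattern. The full cyclic AMP element TGACGTCA was in the Dusp1 window, at -143 to -136 from the start site, and in 1.79% of all windows. Its first letters, TGACG, which overlap the full element, were in the windows of 6 genes, Fos at -129 to -125 and -66 to -62 among them, and in 20.8% of all windows. TGACATCA, a variant AP-1 element known from Jun, was in the Jun window at -45 to -38 and in 3.62% of all. The AP-1 element TGACTCA was in none of the 11 windows, against 5.2% of all. Of the EGR elements, GCGGGGGCG was in the Fosb window at -50 to -42 (2.91% of all) and GCGTGGGCG in none (0.612% of all). TATAAA was in the Fos window at -33 to -28 and in 13.6% of all. In the Junb window it was at 1 to 6, from the start site on and not before it. TGACG and TGACATCA were added to the search after the promoters were seen, and absent letters say nothing about a factor. Bases further upstream were not searched, so an element there would have been missed.

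Levels are in FPKM, fragments per kilobase of transcript and sequencing depth, so they can be set beside each other between genes. The authors' table has only the mean of each group, so no spread, interval or p-value can be given for any FPKM below, and a single library could carry a difference. Ratios are log2 of (FPKM + 1) in MD1 over WT, which understates the change of low genes. Gene counts leave out genes whose FPKM averaged under 1 over both groups or was 0 in either. That left 11399 genes, among them 8 of the 10; Egr2 and Egr3 were left out.

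In MD1 fibroblasts the standing level of Fos was far lower than in WT, Egr1 and Dusp1 were lower by a smaller factor, and Jun and Junb were nearly the same. Of the 8 genes that passed the filter, 1 (Fos) was lower by 2-fold or more and none was higher, while over all genes 2.81% were lower and 1.39% higher by as much. At 1.5-fold, 3 were lower (Fos, Egr1 and Dusp1) and none higher, against 7.65% lower and 6.05% higher over all genes. Over all 10 genes the median log2 ratio was -0.20, with 7 ratios below 0 and 3 above. Over the whole table, which includes genes that are not expressed, the median was 0 and 41.9% of ratios were below 0. Of the 8 genes that passed the filter 6 had ratios below 0, against 49.2% of all genes that passed. With so few genes and no value per library, these counts are a description of the group means.

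**Figure D1:**
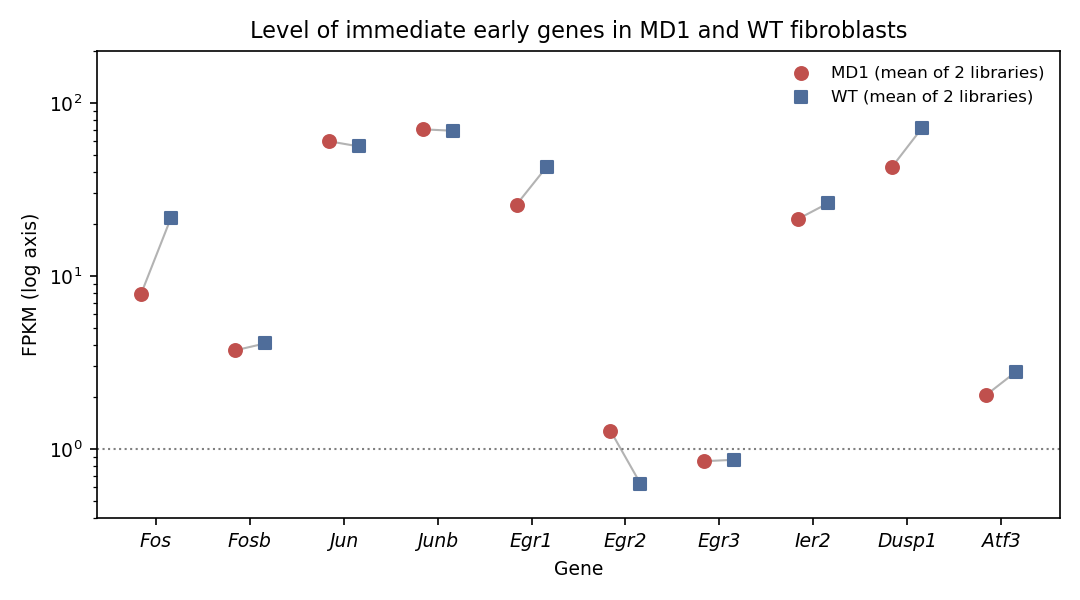
Mean FPKM of each of the 10 genes in MD1 (circles) and WT (squares) on a log axis, each point being the authors' mean over 2 libraries with no error available; the dotted line is 1 FPKM. The MD1 circle lies furthest below the WT square for Fos, at 7.84 against 21.7 FPKM, less so for Dusp1 and Egr1; Jun and Junb are nearly level, and for Egr2, near 1 FPKM, the MD1 circle lies above the WT square.

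Fos (mm9 chr12:86814851-86818219, plus strand), which encodes the FOS subunit of AP-1, had a mean of 7.84 FPKM in MD1 and 21.7 FPKM in WT. MD1 thus had 36.2% of the WT level, a log2 ratio of -1.36. Only 1.40% of the 11399 genes had a ratio as low or lower. In MD1 the Fos level exceeded that of 37.8% of these genes, and in WT that of 66.9%. Fosb (chr7:19888045-19895394, minus strand), whose product also pairs with JUN proteins, had 3.71 FPKM in MD1 and 4.07 FPKM in WT, a log2 ratio of -0.11. The Fos level was 2.11 times that of Fosb in MD1 and 5.32 times in WT.

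The other FOS-family genes are Fosl1 (FRA1) and Fosl2 (FRA2), whose RNAs usually follow later and last longer than Fos. Fosl1 had 65.1 FPKM in MD1 and 37.3 FPKM in WT (log2 ratio 0.79), and Fosl2 had 42.2 and 37.2 FPKM (0.18). Summed over the family the level was 118.8 FPKM in MD1 and 100.2 FPKM in WT. Fos made up 6.60% of that sum in MD1 and 21.6% in WT, while Fosl1 made up 54.8% and 37.2%. The lower Fos level thus stood beside a higher Fosl1 level, and the sum was not lower in MD1.

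Jun (chr4:94715727-94718913, minus strand), the main partner of FOS, had 60.0 FPKM in MD1 and 56.0 FPKM in WT, a log2 ratio of 0.10. Junb (chr8:87500808-87502647, minus strand), a JUN relative that can restrain it, had 70.3 FPKM in MD1 and 69.0 FPKM in WT, a log2 ratio of 0.03. These were the best-expressed 2 of the 10 genes in MD1. Jund, the family member that resting cells express steadily, was outside the naming rule and is given here because it completes the family. It had 33.6 FPKM in MD1 and 50.3 FPKM in WT (-0.57), and made up 20.5% of the JUN-family sum in MD1 and 28.7% in WT. The ratio of Fos to Jun in FPKM was 0.131 in MD1 and 0.387 in WT.

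**Figure D2:**
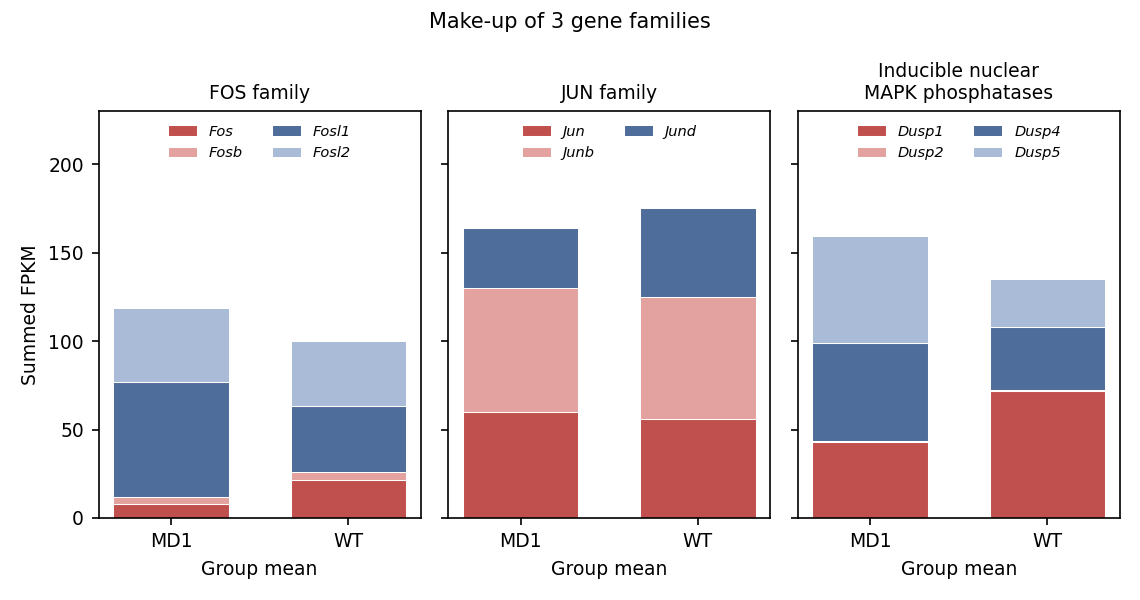
Summed mean FPKM of the FOS family, the JUN family and the inducible nuclear MAPK phosphatases, with MD1 left of WT in each panel and each gene a segment of the bar (no error available). The Fos segment is 6.60% of the MD1 bar and 21.6% of the WT bar, and the Dusp1 segment is 26.8% of the MD1 bar and 53.04% of the WT bar.

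Among the EGR genes, zinc-finger factors that bind GC-rich elements, only Egr1 was well expressed in both groups. Egr1 (chr18:35020861-35024610, plus strand) had 25.8 FPKM in MD1 and 42.6 FPKM in WT, or 60.6% of the WT level and a log2 ratio of -0.70. As low a ratio or lower was found for 5.52% of the 11399 genes. Egr2 (chr10:67000617-67004936, plus strand), best known for its part in the hindbrain and in myelinating Schwann cells, had 1.28 FPKM in MD1 and 0.631 FPKM in WT. Its log2 ratio was 0.48 with the pseudocount of 1 and 1.02 without one, so the size of this difference rests on the pseudocount. Egr3 (chr14:70477252-70482420, plus strand), needed for muscle spindles, had 0.850 FPKM in MD1 and 0.866 FPKM in WT, with a log2 ratio of -0.01 that turned to 0.06 under quantile normalization. Egr1 made up 92.1% of the summed EGR level in MD1 and 96.6% in WT. Nab1 and Nab2, co-repressors that bind EGR proteins, were within 1.5-fold; Nab2, itself known as an EGR target, had 39.2 FPKM in MD1 and 49.2 FPKM in WT (-0.32).

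Dusp1 (chr17:26642536-26645417, minus strand), which encodes the nuclear phosphatase that turns off p38, JNK and ERK, had 42.7 FPKM in MD1 and 71.7 FPKM in WT. That was 59.5% of the WT level and a log2 ratio of -0.74, and 5.12% of genes had a ratio as low or lower. In WT it was the best-expressed of the 10 genes, and in MD1 it came after Junb and Jun. Its relatives Dusp5 and Dusp4 had higher means in MD1. Dusp5, a nuclear phosphatase for ERK, had 60.3 FPKM in MD1 and 26.97 FPKM in WT (1.13), and Dusp4 had 55.8 and 35.8 FPKM (0.63). Of the 4 inducible nuclear phosphatases (Dusp1, Dusp2, Dusp4 and Dusp5), which summed to 159.4 FPKM in MD1 and 135.2 FPKM in WT, Dusp1 made up 26.8% in MD1 and 53.04% in WT. The ratio of Egr1 to Dusp1 in FPKM was 0.605 in MD1 and 0.594 in WT.

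Ier2 (chr8:87185230-87186751, minus strand), which encodes a small short-lived nuclear protein, had 21.4 FPKM in MD1 and 26.3 FPKM in WT, a log2 ratio of -0.29. Atf3 (chr1:192994176-193007212, minus strand), a stress-induced relative of the AP-1 subunits, had 2.05 FPKM in MD1 and 2.79 FPKM in WT, a log2 ratio of -0.32. Neither reached 1.5-fold. For Ier2 19.1% of genes and for Atf3 17.4% had a ratio as low or lower, so both were ordinary in this respect. Summed over all 10 genes the level was 235.9 FPKM in MD1 and 295.7 FPKM in WT, or 79.8%.

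From highest to lowest, the order in MD1 was Junb, Jun, Dusp1, Egr1, Ier2, Fos, Fosb, Atf3, Egr2 and Egr3. In WT it was Dusp1, Junb, Jun, Egr1, Ier2, Fos, Fosb, Atf3, Egr3 and Egr2. Whether neighbours in this order differ beyond the spread between libraries could not be judged. The places of Egr1, Ier2, Fos, Fosb and Atf3 were alike in both groups. Several of the genes were not low beside all genes that passed the filter. In WT the levels of Dusp1, Junb, Jun and Egr1 exceeded those of 90.2%, 89.6%, 87.3% and 82.8% of them. In MD1 the same genes exceeded 82.4%, 89.9%, 87.9% and 71.2%. Fosb and Atf3 were low, exceeding 21.0% and 14.0% in WT and 19.9% and 10.2% in MD1.

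The fathers pass on autosomal JF1 alleles in blocks, so the groups may differ in such alleles near any of the 10 genes, and such a difference cannot be told apart from that in Smchd1. Dusp1 lies on chromosome 17, as Smchd1 does, and the part of alleles inherited together with Smchd1 in the Dusp1 level was not tested. The nearest genes on either side that passed the FPKM filter, chosen after the members' values were seen, give the local picture. Fos lies between Tmed10, with 47.5 FPKM in MD1 and 52.0 FPKM in WT (log2 ratio -0.13), and Jdp2, an AP-1 repressor gene, with 26.2 and 33.6 FPKM (-0.35). The neighbours of Dusp1 are Luc7l, with 30.8 FPKM in MD1 and 24.6 FPKM in WT (0.31), and Ergic1, with 126.8 and 166.9 FPKM (-0.39). Those of Egr1 are Reep2, with 1.08 FPKM in MD1 and 2.13 FPKM in WT (-0.59), and Etf1, with 116.4 and 95.95 FPKM (0.28). Without a pseudocount the log2 ratio of Reep2, near 1 FPKM, was -0.98 and that of Egr1 -0.72, so Reep2 was lower in MD1 by the larger factor, a setting added after the values were seen. The neighbours of Fos and Dusp1 were within 1.5-fold with and without a pseudocount. The neighbours of the other 7 genes had log2 ratios of -0.95 to 0.48 with the pseudocount of 1, the lowest being Rtn2 beside Fosb, with 2.60 FPKM in MD1 and 5.96 FPKM in WT.

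Of the genes that act upstream, those of kinases and SRF cofactors were within 1.5-fold, and some receptor genes were not. All 27 RAS and MAPK kinase genes passed the filter and none differed by 1.5-fold, with log2 ratios of -0.20 to 0.52 and a median of 0.11. None of the genes of SRF and its cofactors that passed, 6 of 7, differed by 1.5-fold either (median 0.09). Among them Elk3, a ternary complex factor, had 44.0 FPKM in MD1 and 38.1 FPKM in WT. Of 10 growth factor and agonist receptor genes, 2 were higher by 1.5-fold and 0 lower: Pdgfra, a PDGF receptor, had 9.25 FPKM in MD1 and 4.79 FPKM in WT (0.82) and Fgfr1 67.2 and 42.3 FPKM (0.65). F2r, the thrombin receptor and the best expressed of that list, had 174.5 FPKM in MD1 and 261.6 FPKM in WT (-0.58). Pdgfrb, outside the naming rule and given here as the other PDGF receptor gene, had 44.3 FPKM in MD1 and 65.4 FPKM in WT (-0.55). F2r and Pdgfrb thus fell just short of 1.5-fold lower. Of the 10 log2 ratios 6 were above 0 and 4 below.

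Part of this pathway lies on the X chromosome, where reads of the paternal JF1 allele were counted per library, so replicates exist. Over the X chromosome, reads that could be given to either allele numbered 521768 to 806626 per library. Elk1 had paternal shares of 23.1% and 26.8% in the MD1 libraries, of 173 and 209 reads, and of 0% and 0.800% in the WT libraries, of 130 and 125 reads. A count of 0 in 130 reads allows a share of up to 2.31%. The mean was 24.96% ± 2.60 in MD1 and 0.400% ± 0.566 in WT (SD, n = 2 each). Rps6ka3, which encodes the ERK-activated kinase RSK2, had 3.55% and 3.804% in the MD1 libraries and 0.172% and 0.0907% in the WT libraries, on 1102 to 1239 reads each. Its means were 3.68% ± 0.179 in MD1 and 0.131% ± 0.0574 in WT (SD, n = 2 each). An exact permutation test (two-sided) gave p = 0.333 for both genes, also after Benjamini-Hochberg adjustment over these 2, and 2 libraries against 2 cannot give less.

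The total levels of the X-linked genes, over both alleles, differed to unlike degrees. Elk1 had 13.5 FPKM in MD1 and 12.2 FPKM in WT, a log2 ratio of 0.14. Rps6ka3 had 13.6 FPKM in MD1 and 15.1 FPKM in WT, a log2 ratio of -0.14. Araf, a RAF kinase gene, had 41.6 FPKM in MD1 and 28.7 FPKM in WT, a log2 ratio of 0.52. For it the authors' deposited table gives a pooled paternal share of 75.3% of 73 MD1 reads (Wilson 95% interval 64.4% to 83.8%, counting error only). The MD1 libraries had 73.3% of 30 and 76.7% of 43 reads. WT had 7 reads with no share, so the MD1 share has no WT value beside it. Reads were few in both groups, and whether reads of both alleles were counted alike for Araf was not tested. Dusp9, an X-linked phosphatase gene looked at after its FPKM was seen, had 14.9 FPKM in MD1 and 6.50 FPKM in WT, a log2 ratio of 1.08. It had paternal shares of 3.03% of 165 reads and 4.59% of 545 reads in the MD1 libraries. Both WT libraries had 0%, of 67 and 187 reads, which allow up to 4.48% and 1.60%. Dusp9 reads thus differed widely between libraries of the same group, and MD1 replicate 1 had fewer than WT replicate 2.

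**Figure D3:**
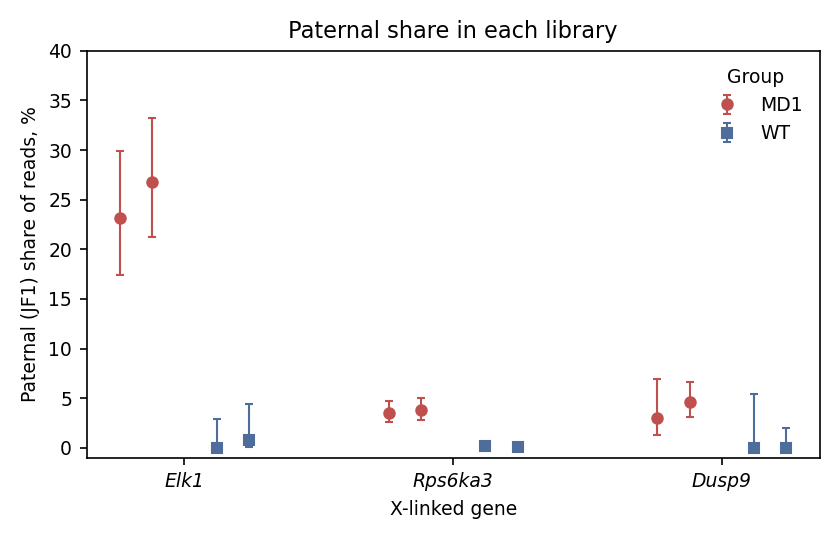
Paternal (JF1) share of allele-specific reads in each of the 4 libraries for Elk1, Rps6ka3 and Dusp9, MD1 left of WT, with Wilson 95% intervals that cover counting error only. The MD1 libraries of Elk1 sit at 23.1% and 26.8% and both WT libraries at or below 0.800%, while MD1 shares of Rps6ka3 and Dusp9 stay under 5%.

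Other primary response genes were more often above WT than below it in MD1. Of 38 listed, 36 passed the filter, and 5 were higher and 2 lower by 1.5-fold. Over all genes 6.05% were higher and 7.65% lower by as much, and these shares belong beside the 1.5-fold counts of every list. Log2 ratios were above 0 for 29 of the 36, with a median of 0.26, against 0.0058 over all genes. Sgk1, a serum- and glucocorticoid-induced kinase gene, had 129.3 FPKM in MD1 and 46.5 FPKM in WT (1.45). Of the NF-kappa-B feedback genes, Nfkbia had 31.5 FPKM in MD1 and 13.6 FPKM in WT (1.16). Tnfaip3 had 13.2 FPKM in MD1 and 5.47 FPKM in WT (1.13). Ptgs2 (COX-2) had 398.4 FPKM in MD1 and 211.8 FPKM in WT (0.91). The lower pair were Btg2, an antiproliferative p53 target, with 18.5 FPKM in MD1 and 44.6 FPKM in WT (-1.23), and Zfp36, whose product destabilises AU-rich RNAs, with 32.9 and 50.7 FPKM (-0.61). Ctgf, the best expressed, had 1192 FPKM in MD1 and 851.3 FPKM in WT (0.48).

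Among the other AP-1 genes 9 of 12 passed the filter, of which 1 was higher by 1.5-fold (Fosl1, above) and 2 lower, with a median log2 ratio of -0.12. Among the lower was Maf, with 3.26 FPKM in MD1 and 5.76 FPKM in WT (-0.67). Of 11 ATF, CREB and C/EBP genes, 1 was higher and 2 were lower by 1.5-fold. Ddit3 (CHOP), a stress factor, had 28.2 FPKM in MD1 and 74.5 FPKM in WT (-1.37), and Atf5 had 54.1 and 101.6 FPKM (-0.90). Cebpd had 21.8 FPKM in MD1 and 10.5 FPKM in WT (0.99). Atf4, which acts upstream of Ddit3, Atf5 and Atf3 in the stress response, had 185.4 FPKM in MD1 and 223.5 FPKM in WT (-0.27).

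Of the 10 other MAPK phosphatase genes 9 passed, of which 4 were higher and 2 lower by 1.5-fold. Besides Dusp5 and Dusp4, the higher ones were Dusp9, with 14.9 FPKM in MD1 and 6.50 FPKM in WT (1.08), and Dusp10, a p38 and JNK phosphatase gene, with 17.3 and 8.59 FPKM (0.93). The allele-specific reads of Dusp9 differed widely between libraries of the same group, as given above. Dusp14 had 21.2 FPKM in MD1 and 33.8 FPKM in WT (-0.65), and Dusp8 had 2.28 and 4.07 FPKM (-0.63).

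Genes known as AP-1 targets mostly had higher means in MD1. Of 11 listed, all passed, 7 were higher by 1.5-fold and 0 lower, against 6.05% higher and 7.65% lower over all genes. Their median log2 ratio was 0.85, with 9 ratios above 0 and 2 below. The list was chosen with earlier results of these data known, so these counts only describe it. The collagenase gene Mmp13, a classical AP-1 target, had 31.6 FPKM in MD1 and 13.7 FPKM in WT (1.15), and Mmp3 had 26.2 and 13.4 FPKM (0.92). Il6 had 18.6 FPKM in MD1 and 1.40 FPKM in WT (3.03), Mmp9 had 3.22 and 0.285 FPKM (1.71), and the X-linked Timp1 had 965.7 and 370.8 FPKM (1.38). Vegfa had 45.1 FPKM in MD1 and 24.6 FPKM in WT (0.85). These genes have other regulators too, and the part of AP-1 in their levels was not tested.

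**Figure D4:**
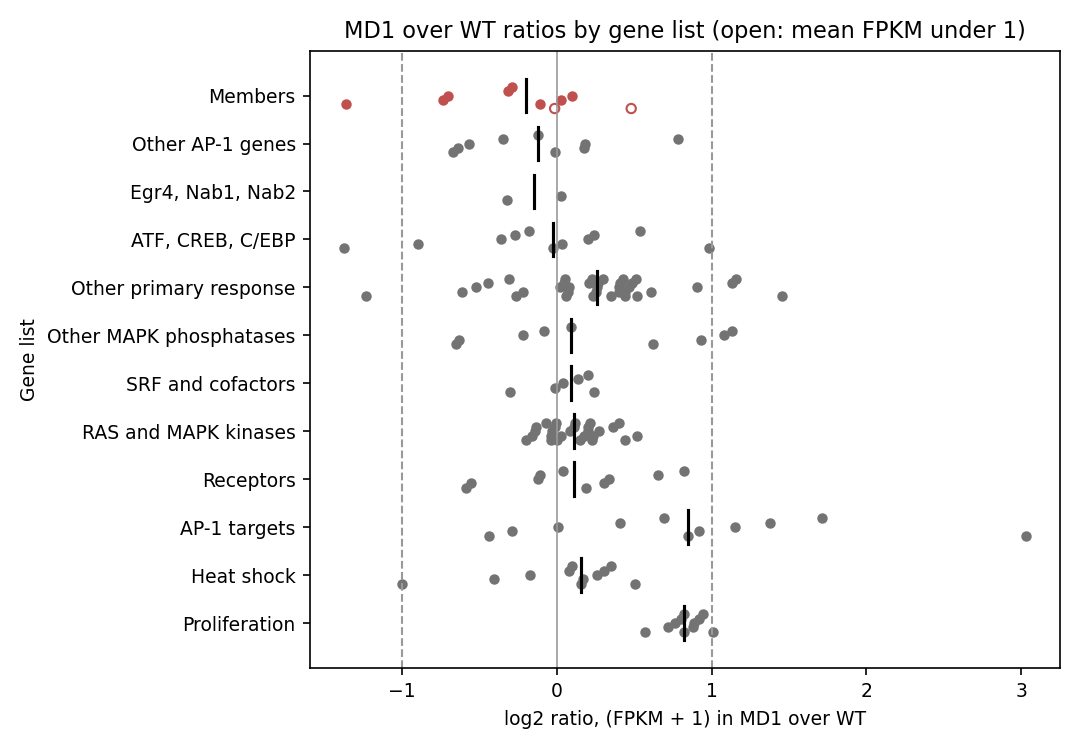
Log2 ratio of (FPKM + 1) in MD1 over WT for the genes of each list that passed the FPKM filter (points) and their median (black bar), with the members in red, including Egr2 and Egr3 as open circles; dashed lines mark 2-fold. The members run from -1.36 (Fos) to 0.48 (Egr2), the RAS and MAPK kinases stay within 1.5-fold, and the medians of AP-1 targets and proliferation genes are 0.85 and 0.83.

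Other properties of the cultures moved with the groups, and their part in the levels of Fos, Egr1 and Dusp1 was not tested. Smchd1, the mutated gene, had 1.94 FPKM in MD1 and 14.7 FPKM in WT, or 13.1%. All 11 proliferation genes had higher means in MD1, 10 of them by 1.5-fold (median 0.83), among them Mki67 with 32.8 FPKM in MD1 and 15.8 FPKM in WT and Pcna, the best expressed, with 83.3 and 42.7 FPKM. Of 11 heat-shock genes 0 were higher and 1 was lower by 1.5-fold, with 8 log2 ratios above 0 and 3 below. The lower one was the stress-inducible Hspa1a, with 1.21 FPKM in MD1 and 3.40 FPKM in WT (-0.997). Its near-identical copy Hspa1b, given here for that reason, had 3.27 FPKM in MD1 and 4.65 FPKM in WT (-0.40), and how reads were split between them is uncertain. All 9 listed fibroblast markers passed the filter, at unlike levels. Vim was highest, at 2802 FPKM in MD1 and 2790 FPKM in WT. Lum had 8.87 FPKM in MD1 and 5.81 FPKM in WT, and Pdgfra 9.25 and 4.79 FPKM. The 9 markers summed to 4627 FPKM in MD1 and 5686 FPKM in WT, much of it Vim. Of these markers, 1 was higher by 1.5-fold (Pdgfra) and 3 lower (Col1a1, Col1a2 and Col3a1). In bulk RNA, fewer cells of a type and less RNA per cell cannot be told apart.

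Markers of skeletal muscle summed to 35.1 FPKM in MD1 and 119.0 FPKM in WT over 4 genes, 3 of which passed the filter and were lower by 2-fold or more. The defining factor Myog had 1.33 FPKM in MD1 and 4.36 FPKM in WT. Neural markers summed to 58.5 FPKM in MD1 and 32.5 FPKM in WT over 4 genes, 2 higher and 1 lower by 1.5-fold, with Elavl3 under 1 FPKM in both. Blood and immune markers summed to 19.6 FPKM in MD1 and 24.5 FPKM in WT over 6 genes, 1 of them lower by 1.5-fold (C1qb), with Ptprc under 1 FPKM in both. Endothelial markers summed to 3.35 FPKM in MD1 and 3.69 FPKM in WT, epithelial ones to 24.8 and 19.95 FPKM, and erythroid ones to 2.63 and 2.87 FPKM, 4 genes each, none differing by 1.5-fold among those that passed. No marker of these lists was at 0 in either group, and 3 endothelial, 2 epithelial and 3 erythroid markers were under 1 FPKM in both.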

How the data were processed

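Polyadenylated RNA of 4 fibroblast cultures was made into stranded libraries, per the labels' protocols. The authors deposited total expression as FPKM, 1 mean per group, and, for X-linked genes, allele-specific reads as counts and the JF1 share as a fraction, per library and pooled. The submitters' processing notes name Cuffdiff, Cufflinks 2.2.1 and the build mm9 without saying what each was used for. The aligner, annotation and strand setting were not given in the sources used here. The depth behind an FPKM is unknown. Starts were moved up by 1, since spans then equal RefSeq lengths for 9511 of 21379 matched genes, against 620 otherwise, and coordinates are mm9 unless GRCm38 is named.

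Ratios, medians and counts were computed with Python 3.11.15, numpy 2.4.6 and pandas 2.3.3, and the ratio and motif searches were tested on simulated data. Had the table held values per library, limma would have been used. Paternal shares were compared by exact permutation (two-sided), with Wilson 95% intervals from scipy 1.17.1; intervals and limits (3 counts) cover counting error only. No label says whether replicates are separate fetuses, so p-values speak only for these libraries. Each permutation p was the least that the test allows. It says that the shares of the groups did not overlap and does not measure a spread. The members and gene lists were chosen with earlier results of these data known. All 10 members are named, and of each other list at most the 6 genes furthest past 1.5-fold and the best-expressed one, except that the proliferation and marker lists are given by sums, counts and examples, and that some genes of the lists are not reported here. The planned comparison of protein sequences was not made. Alternatives were other pseudocounts, filters, scalings and folds, leaving out each library, and a replicate block.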

Additional observations from a re-analysis of the deposited data

How the results depend on the processing

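Under a pseudocount of 0.1, no pseudocount, no filter on FPKM, a filter at 5 FPKM, quantile normalization and centring on the median of all genes, Fos stayed lower by 2-fold or more and 3 of the 10 genes (Fos, Egr1 and Dusp1) lower by 1.5-fold or more, so 3 were called at 1.5-fold where 1 was at 2-fold. The Fos log2 ratio ran from -1.47 (no pseudocount) to -1.36, that of Egr1 from -0.72 to -0.70 and that of Dusp1 from -0.75 to -0.74. The median over all 10 was -0.22 to -0.15. Egr2 moved to 0.91 with a pseudocount of 0.1. Over all genes, 494 were lower and 259 higher by 2-fold with a pseudocount of 0.1, 514 and 283 without one, and 191 and 94 with a filter at 5 FPKM, against 320 and 158. The median of Egr4, Nab1 and Nab2 reversed to 0.027 without a filter, since Egr4, near 0, then enters. The median of the other MAPK phosphatases moved to 0.36 with a filter at 5 FPKM, where Dusp8 leaves. Of 264 values of named genes under alternatives, 0 called ones changed sign and 15 moved by 0.2 or more. Leaving out each library in turn gave differences of 22.7 to 26.4 points for Elk1 and 3.42 to 3.67 points for Rps6ka3, with p = 0.333 in the exact permutation test each time; pooled reads gave 24.7 and 3.54 points. With the replicate number as a block the differences were 24.6 and 3.55 points, and the exact sign-flip test gave p = 0.5, the least that 2 pairs allow; the samples share only a number. Libraries could not be left out of FPKM, which has 1 mean per group.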
